A study of Rattus norvegicus with 10 samples.

Results

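The 9 genes described here encode receptors of the interleukin-6 cytokine family and the proteins that carry their signal: the ligand gene Cntf, the receptor genes Il6r, Cntfr, Lifr, Osmr and Il6st, the kinase gene Jak1, the transcription factor gene Stat3 and the feedback inhibitor gene Socs3. They were taken by gene name from a table of 30560 genes measured in rat L6 dorsal root ganglia, which hold the cell bodies of sensory neurons next to the spinal cord. The rats were Sprague Dawley, 7 to 8 weeks old. The set was gathered around Socs3 because Socs3 was higher in treated ganglia, so the treated and control values below describe that choice, and the tests of that contrast are reported only beside the background of all genes. All 9 genes had enough counts to be tested, 15186 genes in all.

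All rats carried an intrathecal lumbar catheter and received meloxicam, and 5 days after surgery they were dosed through it. The 5 control samples came from rats given phosphate-buffered saline (PBS), and the 5 treated samples from rats that received SCN9A_2544 at 0.75 mg. SCN9A_2544 is a small interfering RNA (siRNA) of divalent design against Scn9a, a sodium channel gene. Every sample is labelled 14 days, with no starting event named. The labels do not state that each sample is 1 animal, and no group given another siRNA was analysed here, so effects of this sequence and of dosing with any siRNA cannot be told apart.

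Cytokines of the interleukin-6 family share the signalling receptor gp130, the product of Il6st, which pairs with a receptor subunit particular to the ligand. Ligand binding activates JAK kinases bound to the receptor tails, and these phosphorylate STAT3, which enters the nucleus and switches on target genes. One of these targets is Socs3, whose protein binds the receptor and JAK and shuts the signal down. In peripheral nerve the pathway is known from nerve injury, where CNTF and LIF from Schwann cells and other cells reach axons and STAT3 acts in injured neurons.

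The libraries held 11832376 to 15420006 estimated counts. Scn9a, the target of the siRNA, stood at 132 to 257 CPM (read counts adjusted for library size) in PBS and 44.6 to 103 CPM in treated libraries, a log2 fold change of -1.03 (SE 0.25). Neuron content varied between libraries: the mean of 20 pan-neuronal markers ran from 8.17 to 9.30 log2 CPM in PBS and from 7.94 to 9.27 in treated libraries, and was lowest in SCN9A_2544 replicate 3. Each bulk value mixes cell types, so fewer cells of a type and less RNA per cell cannot be told apart.

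Socs3 (ENSRNOG00000063373) was higher in every treated library than in any PBS library. In PBS replicates 1 to 5 it stood at 7.83, 5.59, 8.64, 7.69 and 10.5 CPM, a mean of 8.04 ± 1.77 CPM (SD, n = 5). In SCN9A_2544 replicates 1 to 5 it stood at 14.6, 14.6, 35.3, 17.0 and 15.1 CPM, a mean of 19.3 ± 8.99 CPM (SD, n = 5). Among treated libraries replicate 3 stood far above the others, which lay close together. The log2 fold change was 1.26 (SE 0.28, 95% interval 0.66 to 1.87) with all libraries and 0.89 (SE 0.18) without SCN9A_2544 replicate 3. With each library's pan-neuronal mean as a covariate it was 1.26 (SE 0.17), and 1.27 (SE 0.21) with the mean of Schwann cell and myelin genes.

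Stat3 (ENSRNOG00000019742), the transcription factor that receptors of this family activate, was also higher in every treated library. It stood at 280, 240, 214, 293 and 208 CPM in PBS replicates 1 to 5, and at 320, 300.4, 300.02, 335 and 337 CPM in treated replicates 1 to 5. The lowest treated library lay just above the highest PBS library, and the treated libraries varied less (318 ± 17.7 CPM) than the PBS libraries (247 ± 38.5 CPM; SD, n = 5 each). Its log2 fold change was 0.37 (SE 0.14, 95% interval 0.07 to 0.66). It was 0.23 (SE 0.12) when the 3 libraries lowest in pan-neuronal markers were left out, which are SCN9A_2544 replicate 3 and PBS replicates 3 and 5.

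Jak1 (ENSRNOG00000011157), the kinase that these receptors use most, overlapped between the groups. PBS libraries stood at 266, 205, 162, 262 and 171 CPM and treated libraries at 256, 236, 131, 241 and 274 CPM, replicates 1 to 5 in each case. The lowest value of all was that of SCN9A_2544 replicate 3, the library with the highest Socs3. The log2 fold change was 0.10 (SE 0.22, 95% interval -0.38 to 0.57).

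**Figure D1:**
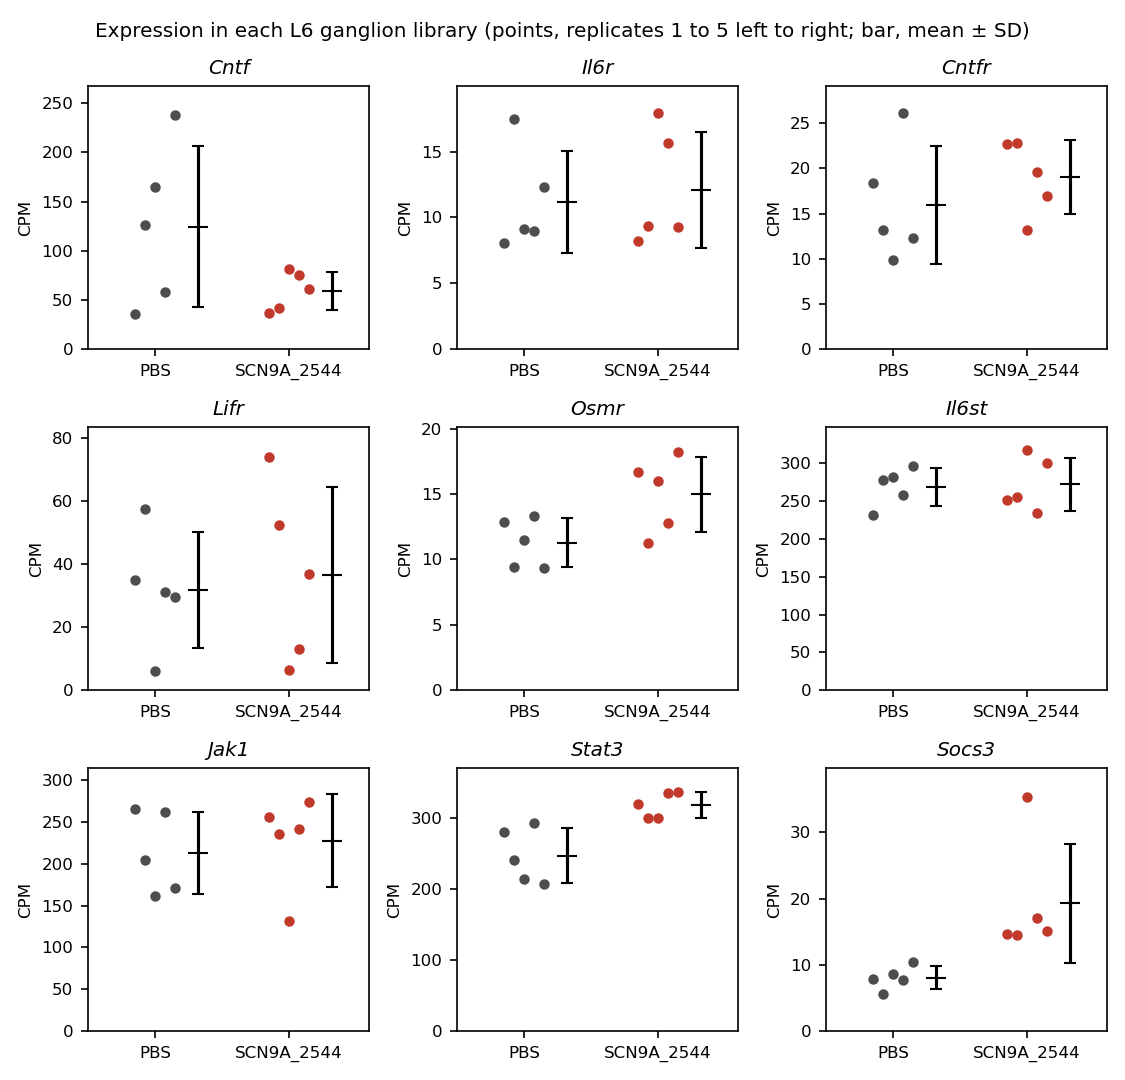
Expression of the 9 genes in each library, in CPM on linear axes from 0, with points for replicates 1 to 5 of PBS (grey) and SCN9A_2544 (red) and bars for mean ± SD. The groups do not overlap for Socs3 and Stat3, and SCN9A_2544 replicate 3 stands at 35.3 CPM for Socs3 and at 131 CPM for Jak1.

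Among the receptors, Osmr (ENSRNOG00000033192), which with gp130 forms a receptor for oncostatin M, leaned toward higher values in treated ganglia. PBS libraries stood at 12.8, 9.38, 11.5, 13.3 and 9.34 CPM and treated libraries at 16.7, 11.2, 16.0, 12.8 and 18.2 CPM. Treated replicates 1, 3 and 5 lay above every PBS library, while replicates 2 and 4 lay among them. Its log2 fold change was 0.41 (SE 0.18, 95% interval 0.02 to 0.80).

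Il6st (ENSRNOG00000013963), the shared gp130 subunit, was the steadiest of the 9 genes. It ranged from 231 to 296 CPM with a median of 278 CPM in PBS and from 235 to 318 CPM with a median of 256 CPM in treated ganglia. The highest of the 10 libraries was 1.37 times the lowest. Its log2 fold change was 0.02 (SE 0.13, 95% interval -0.27 to 0.31), an interval that leaves out a change as large as the one estimated for Socs3.

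The ligand-binding subunits Il6r, for interleukin-6, and Cntfr, for ciliary neurotrophic factor, overlapped between groups. Il6r (ENSRNOG00000020811) ranged from 8.03 to 17.5 CPM in PBS and from 8.24 to 18.0 CPM in treated ganglia, with a log2 fold change of 0.11 (SE 0.28), or -0.11 without SCN9A_2544 replicate 3. It was high in PBS replicate 2 and in treated replicates 3 and 4, and under 13 CPM in the other libraries. Cntfr (ENSRNOG00000047307) ranged from 9.84 to 26.1 CPM in PBS and from 13.1 to 22.8 CPM in treated ganglia, with a log2 fold change of 0.26 (SE 0.26). Its lowest treated value was again that of replicate 3.

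Lifr (ENSRNOG00000011696), the receptor for leukemia inhibitory factor that also joins the CNTF receptor, varied more than any other member. It stood at 35.0, 57.3, 5.90, 31.2 and 29.4 CPM in PBS and at 73.8, 52.2, 6.40, 12.9 and 36.8 CPM in treated replicates 1 to 5. The highest library was 12.5 times the lowest, and the extremes occurred in both groups. The log2 fold change was 0.19 (SE 0.63, 95% interval -1.18 to 1.57), the widest of the 9 genes. It was -0.32 (SE 0.44) with the pan-neuronal mean in the model and -0.41 (SE 0.53) with that of Schwann cell and myelin genes.

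Cntf (ENSRNOG00000012460), the ligand that Schwann cells make, was the 1 member with a lower mean in treated ganglia. It stood at 35.7, 126, 165, 58.3 and 238 CPM in PBS and at 36.7, 42.0, 81.1, 75.2 and 60.7 CPM in treated replicates 1 to 5. The groups overlapped: PBS replicates 1 and 4 lay within or below the treated range, and PBS replicates 2, 3 and 5 above it. The log2 fold change was -1.07 (SE 0.44, 95% interval -2.04 to -0.10). It was -0.62 (SE 0.24) once the mean of Schwann cell and myelin genes was a covariate, -0.73 (SE 0.41) without PBS replicate 5 and -0.48 (SE 0.38) when the 3 libraries lowest in pan-neuronal markers were left out.

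Among the 9 genes 8 log2 fold changes lay above 0, against 53.4% of all tested genes. Of these, Il6st, Lifr, Il6r and Jak1 changed sign in some alternative analyses. For 2 genes the groups did not overlap, both higher in treated ganglia, against 0.454% of all tested genes. By edgeR's quasi-likelihood test with Benjamini-Hochberg adjustment 0 of the 9 passed an adjusted p of 0.05, as did 0% of all tested genes. Scn9a, the target of the siRNA, did not pass this test either (adjusted p = 0.9635). Not passing therefore does not show that a gene was unchanged, here or in the lists below. An unadjusted p under 0.05 was reached by 4 of the 9 and by 4.23% of all tested genes. DESeq2 called 1 of the 9, Socs3, and 0.0945% of the genes it tested. Because Socs3 was chosen from this same contrast, nothing is read from these counts.

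The levels of several members varied with the pan-neuronal mean of a library, and also with its Schwann cell and myelin mean. Which of the 2 means they follow was not tested. The relation was computed for the 9 members only, so whether it is particular to them among all genes was not tested. These relations run over all libraries and include the difference between groups, so r is also given after subtracting group means. Over the 10 libraries, log2 CPM of Jak1 rose with the pan-neuronal mean (Pearson r = 0.97, permutation p = 0.00012, adjusted over the 9 members 0.00108; Spearman rho = 0.77, permutation p = 0.012, adjusted 0.0359). Cntfr did the same (r = 0.84, permutation p = 0.0019, adjusted 0.00855; rho = 0.92, permutation p = 0.00048, adjusted 0.00432). Without the 2 libraries farthest from the median neuron content, SCN9A_2544 replicate 3 and PBS replicate 3, these r values were 0.92 for Jak1 and 0.84 for Cntfr. After subtracting each group's mean they were 0.97 and 0.86. Against the Schwann cell and myelin mean, r of Jak1 was -0.93 (permutation p = 0.00013, adjusted 0.00117). That of Cntfr was -0.85 (permutation p = 0.00276, adjusted 0.00945).

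Cntf ran the other way, with r = -0.72 (permutation p = 0.0198, adjusted 0.0444) and rho = -0.81 (permutation p = 0.00705, adjusted 0.0317). Its r was -0.94 without those 2 libraries and -0.76 after subtracting group means. With 1 library left out, r of Cntf ran from -0.90 to -0.65, and its adjusted permutation p (exact) passed 0.05 in 1 of 10 cases. Against the Schwann cell and myelin mean r of Cntf was 0.84 (permutation p = 0.00315, adjusted 0.00945; rho = 0.90, permutation p = 0.00094, adjusted 0.00846). Lifr had r = 0.80 with the pan-neuronal mean (permutation p = 0.00953, adjusted 0.0286; rho = 0.64, permutation p = 0.0553, adjusted 0.0993), but r = 0.31 without the 2 farthest libraries, so that relation rests on them.

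The other 5 members did not pass with the pan-neuronal mean when all libraries were kept. Il6st had r = -0.68 (permutation p = 0.0328, adjusted 0.0591; rho = -0.61, permutation p = 0.0662, adjusted 0.0993) and Il6r r = -0.54 (permutation p = 0.101, adjusted 0.141; rho = -0.66, permutation p = 0.0438, adjusted 0.0985). Stat3 had r = 0.53 (permutation p = 0.109, adjusted 0.141; rho = 0.41, permutation p = 0.249, adjusted 0.32) and Osmr r = 0.19 (permutation p = 0.599, adjusted 0.599; rho = 0.32, permutation p = 0.368, adjusted 0.414). Socs3 had r = -0.35 (permutation p = 0.324, adjusted 0.365; rho = -0.25, permutation p = 0.492, adjusted 0.492), and r = 0.12 without the 2 farthest libraries. Within the groups, r of Socs3 with the pan-neuronal mean was -0.80, a value in which SCN9A_2544 replicate 3 has the lowest neuron content and the highest Socs3. For Stat3, Osmr, Il6st and Il6r, r without the 2 farthest libraries was 0.76, 0.67, -0.49 and -0.66. After subtracting group means over all libraries it was 0.71, 0.15, -0.69 and -0.57, and that of Lifr was 0.80. Without SCN9A_2544 replicate 3 alone, Stat3 passed by r (0.82, exact permutation p = 0.00798, adjusted 0.018). By rho it did not (0.53, exact permutation p = 0.1475, adjusted 0.208). Against the Schwann cell and myelin mean Il6st did pass by r (0.76, permutation p = 0.0141, adjusted 0.0317). Il6r passed there by rho only (0.77, permutation p = 0.013, adjusted 0.0291). Lifr had r = -0.72 with that mean (permutation p = 0.0218, adjusted 0.0393), but -0.25 without the 2 farthest libraries. The labels name no batch, and 5 libraries a group were too few for a correlation inside each group.

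**Figure D2:**
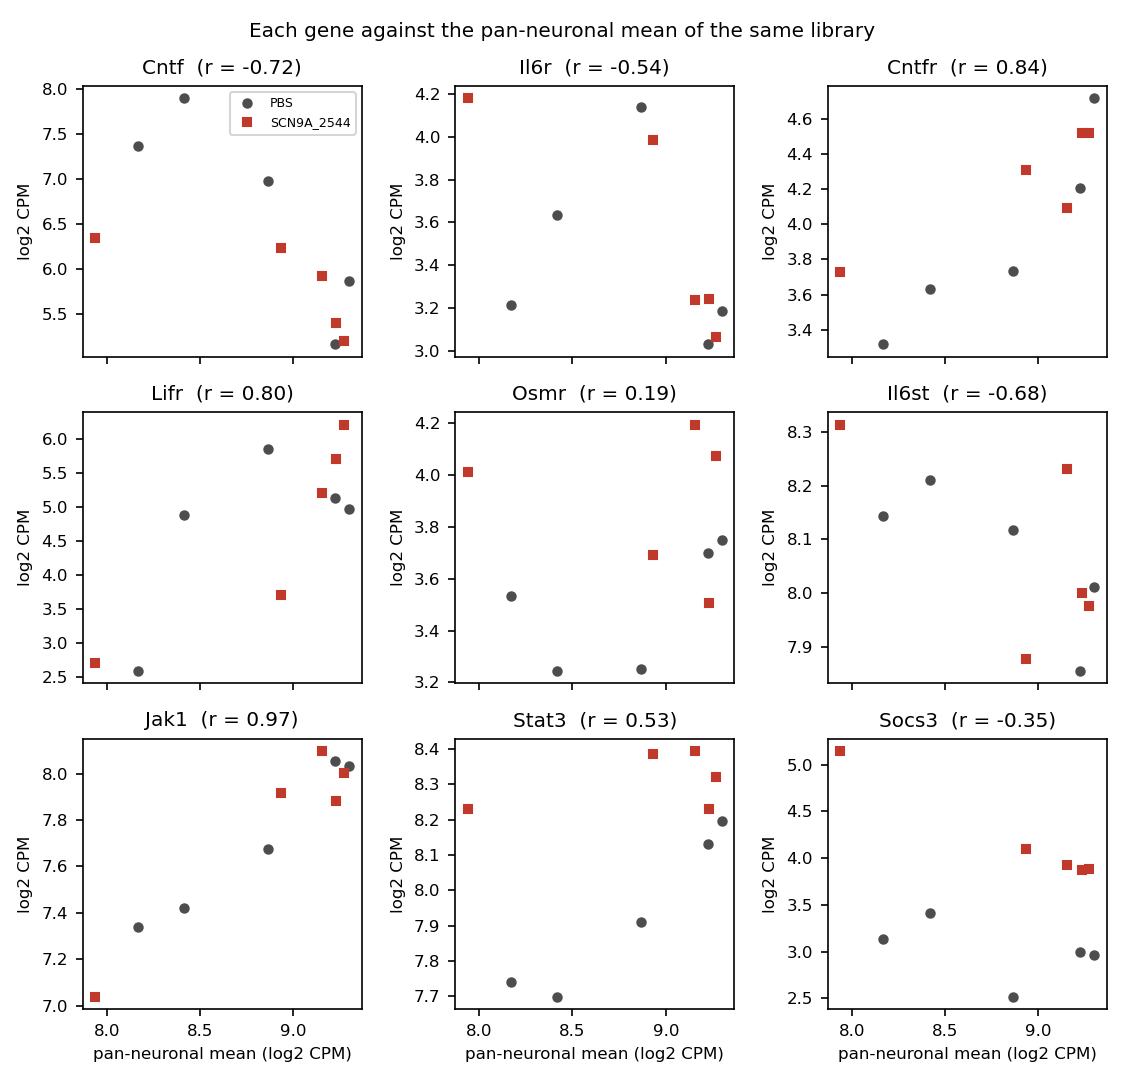
Log2 CPM of each of the 9 genes against the mean log2 CPM of 20 pan-neuronal markers in the same library, PBS as grey circles and SCN9A_2544 as red squares. Jak1 and Cntfr climb with neuron content (r = 0.97 and 0.84) and Cntf declines (r = -0.72), while treated Socs3 values lie above the PBS values at every neuron content.

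The marker means of 2 non-neuronal cell types were, like Socs3 and Stat3, higher in treated libraries on average. No r between these means and Socs3 was computed. Inside PBS, replicate 2 had the lowest Socs3 (5.59 CPM) but the highest satellite glia (6.46) and macrophage (3.999) means in log2 CPM. Among treated libraries replicate 3, the highest in Socs3, was among the highest in both (6.69 and 4.45). The mean of 10 satellite glia markers ran from 6.18 to 6.46 log2 CPM in PBS and from 6.58 to 6.69 in treated libraries, without overlap. Of the 10 genes 7 had log2 fold changes above 0, against 53.4% of all tested genes. Their summed level was 3523 to 4964 CPM in PBS and 4673 to 5482 CPM in treated libraries. The mean of 14 macrophage markers ran from 3.33 to 3.999 in PBS and from 3.83 to 4.70 in treated libraries, with 13 of the 14 above 0 and a summed level of 168 to 262 CPM and 259 to 461 CPM. None of these 24 genes was at 0 in any library. The complement gene C1qa, a macrophage marker, stood at 20.7 to 35.9 CPM in PBS and 43.6 to 81.0 CPM in treated libraries. Kcnj10, a potassium channel of satellite glia, stood at 54.7 to 98.2 CPM and 99.4 to 183 CPM. These 2 genes, named after their values were seen, did not overlap between groups, as did 0.454% of all tested genes with higher treated values. Other markers did, such as Mrc1 of macrophages (9.61 to 16.7 and 12.5 to 21.1 CPM) and Fabp7 of satellite glia (19.5 to 55.6 and 22.6 to 53.9 CPM). Log2 fold changes were below 0 for the macrophage marker Cd163 (-0.53) and the satellite glia markers Sparcl1 (-0.47), Cdh19 (-0.35) and Glul (-0.01). Neutrophil markers, 7 in number, summed to 72.1 to 804 CPM in PBS and 159 to 469 CPM in treated libraries with 1 of 7 above 0. The T cell genes summed to at most 1.54 CPM in PBS and 2.32 CPM in treated libraries, and Cd3d was at 0 in at least 1 library of each group. The part of these cells in the Socs3 and Stat3 values was not tested.

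The genes whose pattern was most like that of Socs3, by Pearson r of log2 CPM over the 10 libraries, were Oplah (r = 0.94), Socs5 (0.93), Trem2 (0.92), Jun (0.92) and Fblim1 (0.92). Without SCN9A_2544 replicate 3 these were 0.90, 0.88, 0.83, 0.85 and 0.82, and after subtracting group means 0.81, 0.94, 0.80, 0.75 and 0.87. Oplah encodes 5-oxoprolinase, Trem2 a receptor of macrophages and microglia, Jun a transcription factor of injured neurons, and Socs5 another member of the SOCS family. Oplah stood at 15.5 to 17.3 CPM in PBS and 21.3 to 28.9 CPM in treated libraries. The genes running most against Socs3 were Scn9a (r = -0.93), Asph (-0.89) and Fn3k (-0.89). Of all 15186 tested genes Scn9a, the target of the siRNA, thus had the lowest r. Its r was -0.85 without SCN9A_2544 replicate 3, the library with the least Scn9a, and -0.79 after subtracting group means. No r was computed with SCN9A_2544 replicate 3 left out and group means subtracted at once. The genes were picked as extremes of r among all tested genes, and that r takes in the difference between groups. These r values therefore describe these libraries and carry no test.

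The other members had nearest patterns of their own: Frat1 for Stat3 (r = 0.98), Ampd3 for Jak1 (0.99), Snx27 for Il6st (0.96), Skp2 for Il6r (0.91), Usp31 for Lifr (0.99), Tctn1 for Osmr (0.88), Pld3 for Cntfr (0.99) and Cav1 for Cntf (0.98). Among the members themselves Socs3 was most alike to Osmr (r = 0.59) and Stat3 (0.53), and after subtracting group means these values were 0.14 and -0.34. Stat3 and Osmr had r = 0.77, or 0.55 after subtracting group means. Cntf and Cntfr, a ligand and its receptor, ran against each other (r = -0.81, or -0.78 after subtracting group means). This was not particular to that pair. Cntf also ran against Stat3 (r = -0.80, or -0.78 after subtracting group means) and Jak1 (-0.68, or -0.71). Cntf and Cntfr had opposite r with the pan-neuronal mean as well (-0.72 and 0.84).

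**Figure D3:**
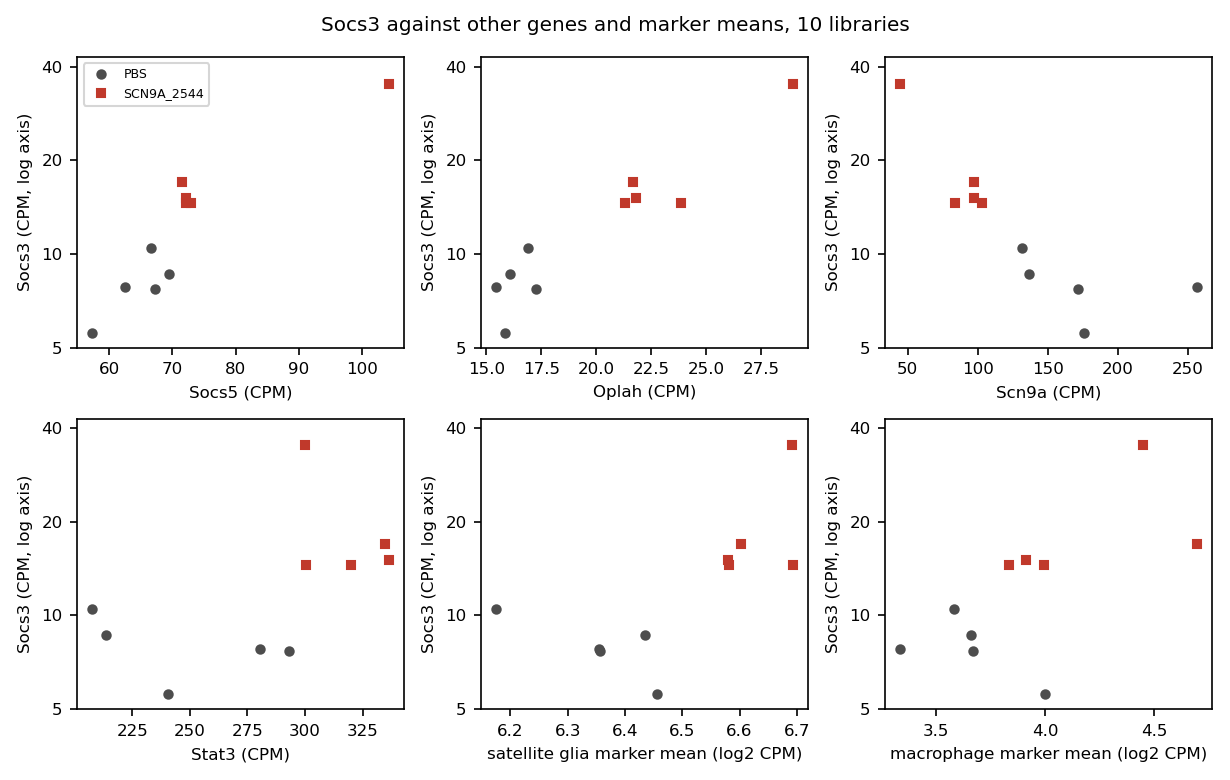
Socs3 in CPM on a log axis against Socs5, Oplah, Scn9a and Stat3 in CPM and against the satellite glia and macrophage marker means in log2 CPM, with 1 point per library (PBS grey circles, SCN9A_2544 red squares). Treated libraries lie apart from PBS libraries in the panels of Socs5, Oplah, Scn9a, Stat3 and satellite glia, and overlap with them in the macrophage panel, where PBS replicate 2 is at 3.999 and SCN9A_2544 replicate 2 at 3.83.

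A wider list of the pathway held 35 other genes. Rows were found for 33 symbols, and 29 could be tested. Log2 fold changes above 0 were seen in 20 of the 29 (69.0%, against 53.4% of all tested genes), and their median was 0.13 against 0.02 over all tested genes. Without SCN9A_2544 replicate 3 that median was 0.08, with limma voom 0.07, and 0.20 with the mean of Schwann cell and myelin genes as a covariate. By edgeR 0 passed over all genes tested, 3 reached an unadjusted p under 0.05, all higher (4.23% of all tested genes did so in either direction), and DESeq2 and limma voom called 0. The groups did not overlap for 2 of them, Socs5 and Ptpn1, both higher in treated ganglia, against 0.454% of all tested genes.

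Apart from Cntf, several ligand genes had few counts. Il6, encoding interleukin-6, was below the count filter, with 2 counts in PBS replicate 1, 0 in the other 4 PBS libraries, and 2, 3, 2, 20 and 3 counts in treated replicates 1 to 5. Il11 had 0 counts in all 10 libraries, which allows up to 0.189 to 0.256 CPM in a library (3 counts). Il27 had at most 2 counts in a library. Lif, encoding leukemia inhibitory factor, stood at 0.0854 to 1.41 CPM in PBS and 0.583 to 4.83 CPM in treated libraries, with a log2 fold change of 1.31 (SE 0.70). Its highest value was in SCN9A_2544 replicate 3, and without that library the log2 fold change was 0.44 (SE 0.59). The log2 fold change of Ebi3, a subunit of interleukin-27, was 0.58 (SE 0.27) and that of Ctf1, cardiotrophin 1, -0.12 (SE 0.32). Osm, encoding oncostatin M, stood at 0.2002 to 1.442 CPM in PBS and 0.567 to 1.29 CPM in treated libraries. Of the 4 ligand genes tested besides Cntf 2 lay above 0 and 0 passed, with a median of 0.29 that ran from 0.11 without SCN9A_2544 replicate 3 to 0.49 without PBS replicate 1.

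The receptors outside the 9 genes lay near 0. For Il11ra1, the interleukin-11 receptor, the log2 fold change was -0.11 (SE 0.12), and for Il31ra, a receptor of itch-sensing neurons that pairs with Osmr, it was 0.05 (SE 0.49). Il31ra ranged from 3.16 to 18.2 CPM in PBS and from 4.09 to 19.1 CPM in treated libraries. The interleukin-27 receptor gene Il27ra had 2 to 7 counts in a library and was not tested.

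Of the 8 other JAK and STAT genes tested 7 lay above 0, with a median of 0.22 (0.13 without SCN9A_2544 replicate 3), and 0 passed. Stat5b, a STAT factor of growth hormone and other cytokine receptors, stood at 44.3 to 52.6 CPM in PBS and 52.4 to 61.6 CPM in treated libraries, with a log2 fold change of 0.25 (SE 0.11). The log2 fold changes of the kinase genes Tyk2, Jak2 and Jak3 were 0.26 (SE 0.14), 0.23 (SE 0.14) and 0.34 (SE 0.24). Without SCN9A_2544 replicate 3 those of Tyk2 and Jak3 were 0.13 (SE 0.12) and 0.2046 (SE 0.24), and that of Jak3 was -0.03 when the 3 libraries lowest in pan-neuronal markers were left out.

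Of the 15 other inhibitors, all tested, 10 lay above 0 and 5 below, the median was 0.07 and 0 past the threshold. Among the SOCS family, Socs2, which restrains growth hormone signalling, stood at 5.26 to 8.29 CPM in PBS and 6.20 to 18.0 CPM in treated libraries (log2 fold change 0.74, SE 0.27). Socs5 stood at 57.3 to 69.4 CPM in PBS and 71.5 to 104 CPM in treated libraries (0.28, SE 0.14), and Cish, a feedback inhibitor downstream of STAT5, at 8.43 to 20.4 CPM and 8.24 to 24.6 CPM (0.51, SE 0.31). Ptpn1, a phosphatase that acts on JAK kinases, stood at 27.8 to 32.5 CPM in PBS and 33.0 to 50.7 CPM in treated libraries (0.33, SE 0.14). Without SCN9A_2544 replicate 3, which had the highest Socs2, Socs5 and Ptpn1 of all libraries, the log2 fold changes of these genes were 0.48 (SE 0.24), 0.13 (SE 0.10) and 0.175 (SE 0.10), and the median of the inhibitors was 0.0037.

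Promoters of feedback inhibitors in this family are known to carry STAT elements, and 2 are shown beside that of Cntf. They were chosen because they hold a match to such an element, which 2 of the 6 inhibitor windows that end at the gene start do and 4 do not. They are the 250 bases before the gene start in RefSeq (build GRCr8, another build than that of the counts), read 5′ to 3′ on the gene's strand. Capitals mark each match to TTCNNNGAA, a palindrome that reads alike on both strands. They lie at chr8:116850719-116850968 on the plus strand for Cish, chr10:5389324-5389573 on the plus strand for Socs1 and chr1:219314536-219314785 on the minus strand for Cntf.
Cish: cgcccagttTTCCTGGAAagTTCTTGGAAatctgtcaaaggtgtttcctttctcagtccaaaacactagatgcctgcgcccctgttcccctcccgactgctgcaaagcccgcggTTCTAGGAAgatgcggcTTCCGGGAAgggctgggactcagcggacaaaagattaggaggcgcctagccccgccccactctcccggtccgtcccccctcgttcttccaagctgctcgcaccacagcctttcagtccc
Socs1: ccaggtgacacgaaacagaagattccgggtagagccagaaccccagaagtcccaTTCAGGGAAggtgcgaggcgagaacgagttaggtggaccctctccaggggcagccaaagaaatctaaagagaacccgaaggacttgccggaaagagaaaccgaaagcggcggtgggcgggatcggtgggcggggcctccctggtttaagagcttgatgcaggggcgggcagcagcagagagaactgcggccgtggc
Cntf: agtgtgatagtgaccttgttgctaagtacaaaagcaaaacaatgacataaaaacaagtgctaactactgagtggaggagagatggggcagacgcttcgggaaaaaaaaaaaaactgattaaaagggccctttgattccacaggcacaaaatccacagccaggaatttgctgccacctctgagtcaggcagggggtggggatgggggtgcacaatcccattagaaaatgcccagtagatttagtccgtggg
Cish held 4 matches, whose first bases lie 241, 230, 136 and 119 bases before the start, and Socs1 held 1, at 196 bases. Of 33469 promoter windows of this length 7.67% held at least 1 match and 2 held 4 or more. The Cntf window held none. At the gene start, 8.06% of 19339 windows held a match, against 3 of 11 for the STAT3 targets, 0 of 4 for the JAK and STAT genes, 0 of 5 for the cytokines and 0 of 1 for the receptors. A match is a description of letters and not a binding site. Of the 9 genes 7 had a window in the promoter table, and only the first window given for each gene was examined. Of these first windows only that of Cntf ends at the start of the gene given in the RefSeq gene table, so the others are not shown. The counts for the lists, inhibitors among them, also use first windows only, whereas the 8.06% uses every window at a gene start.

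Genes known as STAT3 targets in other settings lay higher in treated ganglia more often than not. Log2 fold changes above 0 were seen in 19 of the 23 tested (82.6%, against 53.4% of all tested genes), with a median of 0.41 against 0.02. By edgeR 0 passed over all genes tested and 6 reached an unadjusted p under 0.05, all higher, against 4.23% of all tested genes in either direction, while DESeq2 and limma voom called 0. The median was 0.20 without SCN9A_2544 replicate 3. Fos, an immediate early transcription factor, stood at 4.10 to 9.06 CPM in PBS and 7.55 to 48.5 CPM in treated libraries (log2 fold change 1.57, SE 0.52, but 0.67, SE 0.27, without SCN9A_2544 replicate 3), and Cebpb, a transcription factor of inflammation, at 5.76 to 10.4 CPM and 7.93 to 22.3 CPM (0.77, SE 0.26, but 0.35, SE 0.24, when the 3 libraries lowest in pan-neuronal markers were left out). A2m, encoding alpha-2-macroglobulin, stood at 34.5 to 78.8 CPM in PBS and 58.5 to 187 CPM in treated libraries (0.93, SE 0.33, but 0.58, SE 0.27, without SCN9A_2544 replicate 3), and Atf3, a transcription factor of injured neurons, at 9.40 to 36.6 CPM and 14.0 to 89.5 CPM (1.42, SE 0.51). For each of these 4 genes the groups overlapped. Several genes of this list also respond to other pathways.

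**Figure D4:**
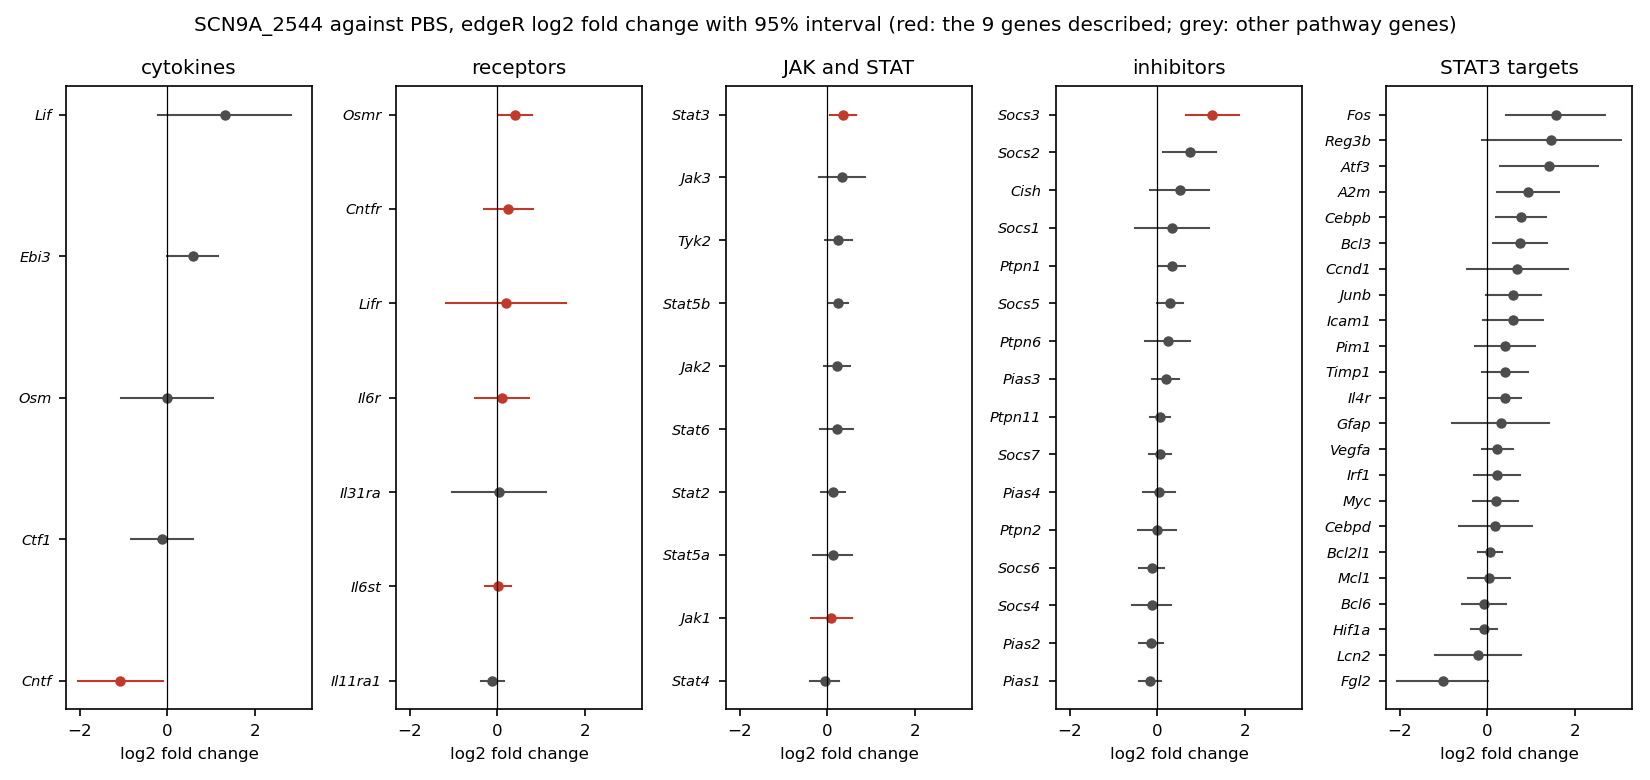
EdgeR log2 fold changes of SCN9A_2544 against PBS with 95% intervals for the tested ligands, receptors, JAK and STAT genes, inhibitors and STAT3 targets, with the 9 genes in red and the others in grey. Socs3 at 1.26 lies at the top of the inhibitors, Cntf at -1.07 at the bottom of the ligands, and most other intervals include 0.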

How the data were processed

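RNA was measured by poly(A) RNA sequencing (paired reads of 150 bases) in 10 samples, per the labels' protocols. The authors deposited estimated counts per gene, not normalized. STAR 2.7.10a, DESeq2 1.44.0 and mRatBN7.2 appear, with no role, in the submitters' processing notes. Not given in the sources used here are the counting program, annotation release and strand setting. RefSeq places Raver2 across part of Jak1, She across part of Il6r and a long noncoding RNA across part of Il6st, so reads of such pairs could be mixed.

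Estimated counts were rounded, filtered with filterByExpr (minimum count 10, minimum total 15) and scaled by TMM. All 15186 remaining genes were fitted with edgeR 4.0.16 in R 4.3.3 (quasi-likelihood test, Benjamini-Hochberg adjustment, threshold 0.05). A standard error is the log2 fold change divided by the square root of F. Log2 CPM uses a prior count of 2. Alternatives used DESeq2 1.42.0 and limma 3.58.1. Correlations over libraries used 100000 permutations, or all orders with 9 libraries. The edgeR and permutation procedures were tested on simulated data. Counting error alone sets the 3-count limits.

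The genes, lists and tests were chosen with earlier results of these data known. Of each list, the 4 genes outside the 9 with the smallest p are named, and the nearest genes by r. Outside this rule, Il6, Il11, Il27, Il27ra, Socs1, C1qa, Kcnj10 and Cd3d were named after their values were seen. So were Mrc1, Fabp7, Cd163, Sparcl1, Cdh19 and Glul. Clcf1 and Il31 were not analysed here, and some genes of the lists are not reported here. As the labels name no separate animals, p-values refer to these samples, whose spread may be technical.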

Additional observations from a re-analysis of the deposited data

Results flagged for a closer look

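Within each group of 5 libraries, the gap between the extreme library and its neighbour was set against the whole range (Dixon's critical ratio 0.71). Of 98 groups examined 11 passed, 10 of them in SCN9A_2544 replicate 3. Chance passes about 1 in 20 independent groups, but these groups are not independent: they include Socs3 and genes chosen for a pattern like or opposite to it, so the counts are not read against that rate. SCN9A_2544 replicate 3 had the highest treated values of Socs3 (35.3 CPM, next 17.0), Socs5 (104, next 73.0), Fos (48.5, next 12.5), Lif (4.83, next 1.35), Ptpn1 (50.7, next 38.0) and Fblim1 (9.40, next 2.77). It had the lowest treated values of Jak1 (131 CPM, next 236) and Asph (61.8, next 86.5). Its pan-neuronal mean was 7.94 log2 CPM (next 8.93) and its endothelial mean 4.62 (next 4.27). The other passing value was Fblim1 in PBS replicate 5, at 2.60 CPM (next 0.984).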

How the results depend on the processing

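The count of genes called by edgeR was 0 with all libraries and 0 with DESeq2 size factors or no filter on low counts. It was 17 with DESeq2, 1 with limma voom and library weights, 1 with the pan-neuronal mean and 1 with the mean of Schwann cell and myelin genes as a covariate. It was 1 when the 3 libraries lowest in pan-neuronal markers were left out, an alternative chosen after seeing the data. With 1 library left out it ran from 0 to 1. With the replicate number as a replicate block it was 0. Same-numbered samples share only a number: correlations of their deviations ran from -0.0063 to 0.57, and 2 of 5 matched their own number best. The signs of Socs3, Stat3, Osmr, Cntfr and Cntf held in all 18 alternatives, with ranges of 0.89 to 1.35, 0.23 to 0.44, 0.29 to 0.50, 0.08 to 0.56 and -1.31 to -0.48. Socs3 was chosen from this contrast, and the groups do not overlap for Socs3 and Stat3. Leaving out libraries could therefore hardly turn these 2 signs, and no support is drawn from their holding. Signs turned for Il6st in 7 of 18, Lifr in 4, Il6r in 3 and Jak1 in 1, and Il6r reached -0.49 with limma voom. Among the 9 genes, 4 related to the pan-neuronal mean by r (adjusted permutation p under 0.05). The count was 5 with the mean of Schwann cell and myelin genes, 5 with DESeq2 size factors and 3 to 4 with 1 library left out. The share of all tested genes with such a relation was not computed, so whether these counts are particular to the 9 genes was not tested. The low counts of Il6, Il11, Il27, Lif and Osm are limited by depth.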
